A study of Mus musculus with 4 samples.

Results

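Interferon-stimulated genes are the genes that a cell switches on when it senses interferon. The set described here is a list of 41 such genes, matched by gene symbol to the array annotation, with the brightest probe set taken for each gene. Of the 41 genes, 37 had a probe set with a single symbol and were measured, out of 17097 genes measured in all. Isg15, Oas1a, Bst2 and Ifi44 had no such probe set in the annotation used here and are not analysed. The measured genes were represented by 55 probe sets, and 35 of the 37 had a mean log2 value above 4.515, the 95th percentile of the 23 nonspecific control probe sets.

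Expression was measured on 4 Affymetrix arrays of intact inguinal mammary gland from mice at postnatal day 10. Arrays of Mt2-mmp(-/-) mice, which lack the membrane-anchored matrix metalloproteinase Mt2-mmp (gene symbol Mmp15) in every tissue, are called knockout 1 and 2. Arrays of Mt2-mmp(+/+) littermates are called wild type 1 and 2. All mice were congenic on C57Bl/6J, and the labels name no treatment. The labels call arrays of one genotype biological replicates without saying whether each holds 1 mouse or a pool, so p-values measure the spread between these arrays. Values are log2 expression values made by the authors with RMA, and a difference is the knockout mean minus the wild-type mean. The arrays correlated at 0.995 to 0.997 over all probe sets. Markers of the labelled tissue were present: the mean log2 value of 11 luminal epithelial genes was 7.40 to 7.71 on the 4 arrays and that of 8 adipocyte genes 10.01 to 10.97. No probe set was named Mmp15, and the deleted gene therefore gives no check of the labels here.

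Interferons are secreted signals of infection and of misplaced nucleic acid. Type I and type III interferons act through Janus kinases on a transcription factor complex that includes STAT2 and IRF9 and binds the interferon-stimulated response element in the promoters of its target genes, and type II interferon acts mainly through gamma-activated sites. The induced proteins sense viral RNA, degrade or block it, trap virus particles, attack the vacuoles of intracellular microbes, and feed back on the pathway. A low level of the same genes is kept up without infection in many tissues.

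The response element was searched as GAAA, then 2 bases of any kind, then GAAA, on both strands (overlapping matches allowed) of RefSeq promoters of mouse assembly GRCm38.p6, each 300 bases long with 250 bases before and 50 after an annotated start. Promoters of 30 of the 41 genes were in the table, 26 of them measured on the arrays. A match was present for 15 of the 30 genes, against 3.44% of all 32851 promoters in the table and 3.99% of its 27025 genes. The 9 windows shown hold a match and belong to genes described below. They run from Ifit1 and Ifit3, among the most variable over the 4 arrays, to Oas3, the least variable but below the nonspecific limit. Capitals mark the matches, and only bases before the start are printed, 5′ to 3′ along the gene.
Ifit1 (chr19:34640755-34640843, + strand): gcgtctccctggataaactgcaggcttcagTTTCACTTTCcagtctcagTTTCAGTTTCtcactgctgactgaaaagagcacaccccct
Ifit3 (chr19:34583343-34583446, + strand): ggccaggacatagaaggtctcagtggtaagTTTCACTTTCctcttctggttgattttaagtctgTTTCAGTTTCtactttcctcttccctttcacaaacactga
Gbp3 (chr3:142559969-142560043, + strand): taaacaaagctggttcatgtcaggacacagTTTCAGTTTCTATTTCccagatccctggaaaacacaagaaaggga
Gbp2 (chr3:142620574-142620643, + strand): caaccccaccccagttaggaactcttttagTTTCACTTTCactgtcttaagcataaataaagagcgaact
Igtp (chr11:58199492-58199555, + strand): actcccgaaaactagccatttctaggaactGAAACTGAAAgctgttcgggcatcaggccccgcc
Irgm1 (chr11:48871421-48871480, - strand): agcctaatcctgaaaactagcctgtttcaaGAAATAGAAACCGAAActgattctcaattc
Rsad2 (chr12:26456533-26456602, - strand): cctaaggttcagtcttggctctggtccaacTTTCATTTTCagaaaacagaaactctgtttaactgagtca
Stat2 (chr10:128270248-128270315, + strand): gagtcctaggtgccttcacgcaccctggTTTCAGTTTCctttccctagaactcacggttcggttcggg
Oas3 (chr5:120777695-120777764, - strand): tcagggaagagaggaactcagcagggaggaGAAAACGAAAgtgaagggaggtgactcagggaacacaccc

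The matches of Ifit1 began 104 and 85 bases before the start, and those of Ifit3 began 156 and 122 bases before it. Gbp3 and Irgm1 each had overlapping matches, the nearer one beginning 39 and 24 bases before the start. Stat2, itself a part of the factor that binds the element, had a match 222 bases before its start. Of the 26 measured genes with a promoter in the table, 12 had a match and 14 had none. Their median ranges over the 4 arrays were 0.69 and 0.49 on the log2 scale, as a description with no test. Iigp1, Rtp4, Zbp1 and Usp18, among the 10 most variable genes, had no promoter in the table and are missing from both motif comparisons. Oasl2 and Xaf1 were among the most variable genes and had no match in this window, while Oas3 had a match and the smallest range. The mean of Oas3 lay below the 95th percentile of the nonspecific controls, so its small range does not show an even level. A match is a string of letters and was not tested as a binding site. The gamma-activated site was searched as TTCNNNGAA, which reads the same on both strands. It was present in 8 of the 30 genes, against 8.3% of all promoters and 9.55% of all genes in the table. For this motif the 6 measured genes with a match had the smaller median range, 0.35 against 0.68 for the 20 without. Irf1, an interferon-induced transcription factor, had a match that began 90 bases before one of its starts.
Irf1 (chr11:53769894-53769962, + strand): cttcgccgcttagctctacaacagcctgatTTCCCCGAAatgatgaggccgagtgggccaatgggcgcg

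The interferon-stimulated genes were lower on average in knockouts, with overlapping arrays for most of them and none past the adjusted threshold. The mean was lower in knockouts for 36 of the 37 genes, where 51.2% of all genes had a lower mean, and the median difference was -0.327 against -0.002 over all genes. No gene of the set passed an adjusted p of 0.05 by limma, a threshold that 0.00585% of all genes passed. At an unadjusted p under 0.05 by limma, 8 of the 37 genes stood out in either direction, against 7.01% of all genes. All 8 were lower in knockouts (Ifit2, Oasl1, Mx1, Gbp2, Igtp, Iigp1, Ifi47 and Cmpk2), against 3.38% of all genes. A difference of at least 0.5 toward lower values was seen for 10 genes, against 0.48% of all genes. Without wild type 2 the median difference was -0.117 and 29 genes had a lower mean, and without knockout 1 these were -0.239 and 32. Without wild type 1 the median was -0.513 with 36 genes lower, and without knockout 2 it was -0.419 with 37 genes lower. The number lower at an unadjusted p under 0.05 by limma was 4 without wild type 2, against 3.04% of all genes at that setting, and 3 without knockout 1, against 1.87%. It was 25 without wild type 1, against 4.35% of all genes, and 7 without knockout 2, against 3.12%.

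**Figure D1:**
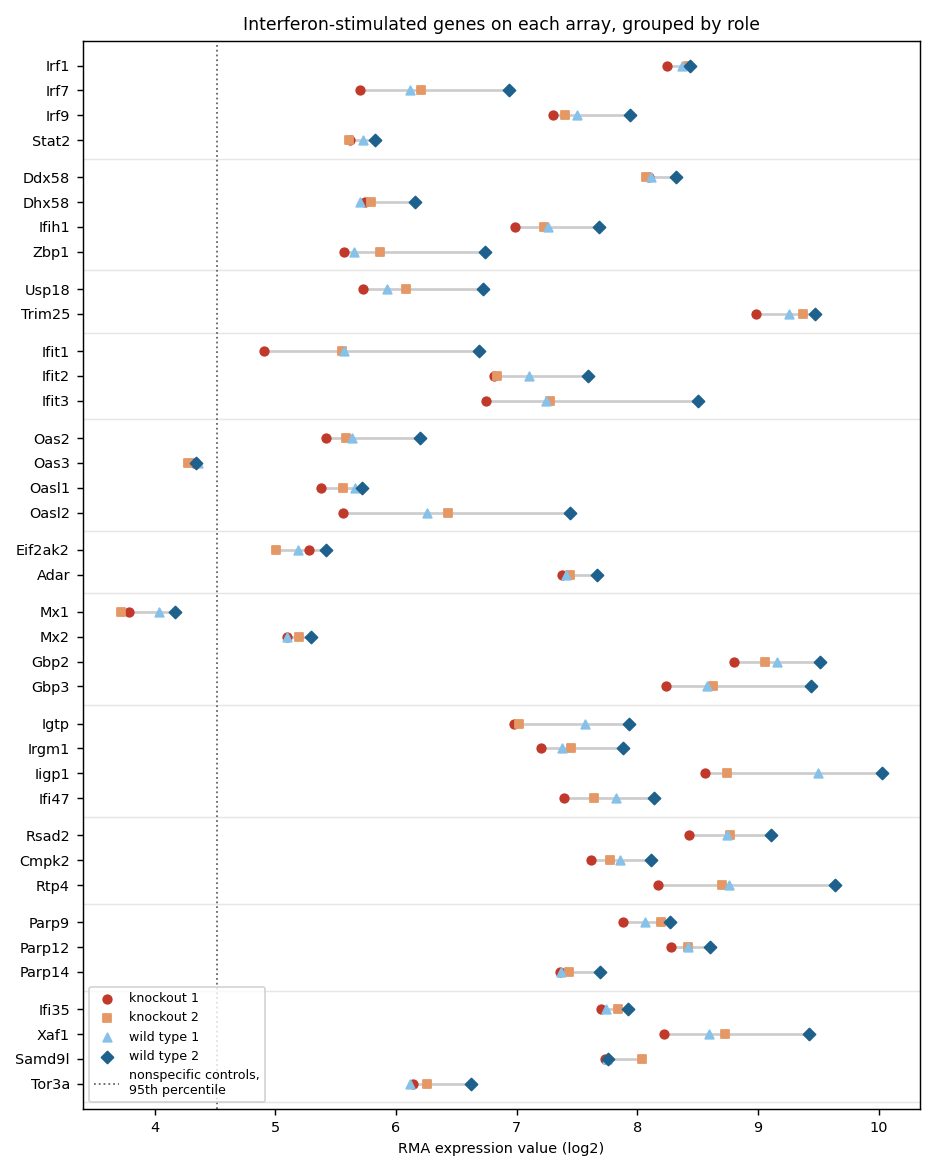
RMA log2 expression value (horizontal axis) of each of the 37 measured interferon-stimulated genes (rows, grouped by role) on the 4 arrays; the dotted line is the 95th percentile of the nonspecific control probe sets, 4.515. Wild type 2 is the rightmost symbol for 35 genes and knockout 1 the leftmost for 29.

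The order of the arrays was shared by most of the genes. Wild type 2 had the highest value for 35 of the 37 genes, against 28.7% of all genes. Knockout 1 had the lowest value for 29, against 28.2% of all genes. Both held for 28 genes, against 12.7% of all genes. Between these outer arrays the median difference, wild type 2 minus knockout 1, was 0.636. The inner arrays were nearly level: wild type 1 minus knockout 2 had a median of -0.029, with 17 genes above 0 and 20 below. Within the wild type, wild type 2 exceeded wild type 1 by a median of 0.366, and within the knockout, knockout 2 exceeded knockout 1 by 0.178. The spread within a genotype was therefore of the size of the difference between genotypes, and the arrays of the genotypes did not overlap, with both knockouts lower, for 16 of the 37 genes, against 19.4% of all genes. In a bulk sample fewer cells of a type and less RNA per cell cannot be told apart.

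**Figure D2:**
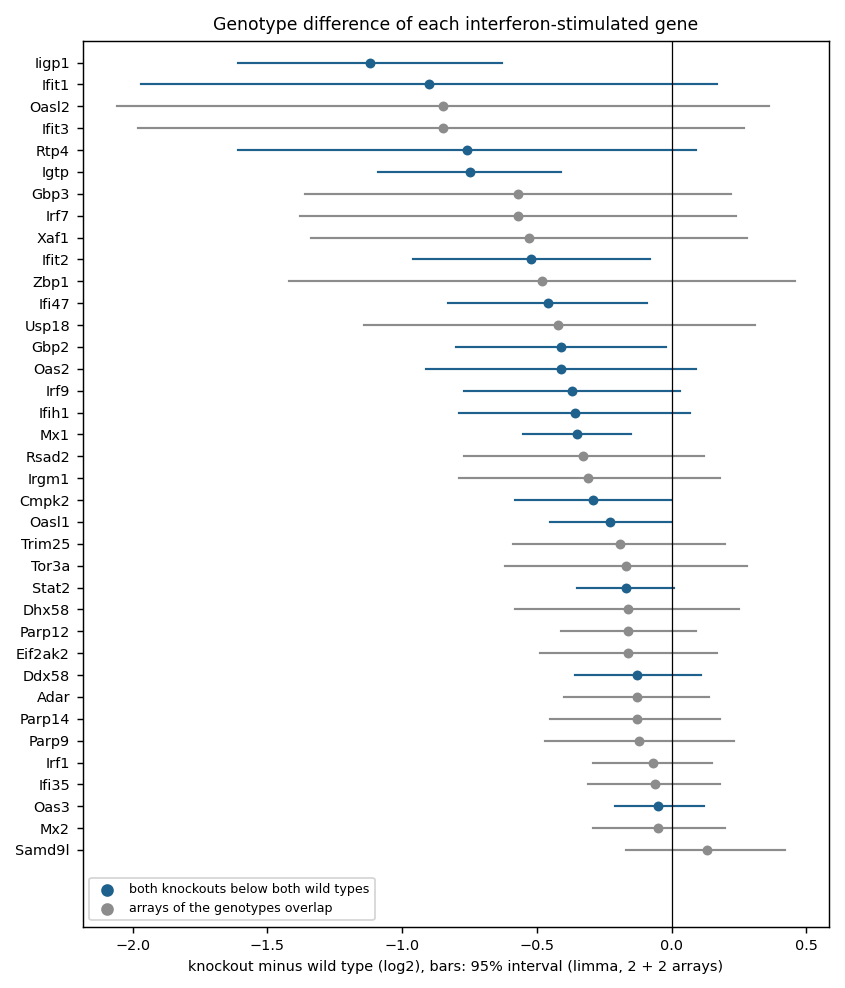
Knockout minus wild-type difference on the log2 scale (points) with its 95% interval from limma (bars; 2 arrays per genotype) for each interferon-stimulated gene, ordered by size. Blue marks the 16 genes for which both knockout arrays lay below both wild-type arrays; Samd9l, at 0.13, is the only gene above 0.

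The transcription factors of the pathway varied between the arrays to different extents. Irf7, the factor that amplifies type I interferon production and is itself interferon-induced, had log2 values of 5.70 and 6.21 in knockouts 1 and 2 and of 6.12 and 6.94 in wild types 1 and 2. The genotypes overlapped, since knockout 2 lay above wild type 1, and the difference was -0.57 (SE 0.314, limma adjusted p = 0.762), or -0.16 without wild type 2 and -0.32 without knockout 1. Irf9, the DNA-binding part of the complex with STAT2, had 7.30 and 7.40 in knockouts against 7.5 and 7.94 in wild types. The arrays did not overlap, and the difference was -0.37 (SE 0.154, limma adjusted p = 0.727), or -0.15 without wild type 2. Stat2, the partner of Irf9 in that complex, had 5.62 and 5.61 in knockouts and 5.73 and 5.83 in wild types, a small separation with a difference of -0.17 (SE 0.0699, limma adjusted p = 0.729). Irf1 was nearly flat, with 8.25 and 8.42 in knockouts and 8.37 and 8.44 in wild types. Its difference was -0.07 with a 95% interval of -0.29 to 0.15.

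Among the nucleic acid sensors Zbp1 had the widest range. Zbp1, which binds left-handed nucleic acid and can trigger cell death, had log2 values of 5.57 and 5.87 in knockouts and 5.65 and 6.74 in wild types. Wild type 2 alone was high, the other 3 arrays lay within 0.30 of each other, and the difference of -0.48 (SE 0.364) turned to 0.07 without wild type 2. Ifih1, which encodes the RNA sensor MDA5, had a difference of -0.36 (SE 0.166; -0.15 without wild type 2), with wild type 2 at 7.68 and the other arrays between 6.99 and 7.26. Ddx58, which encodes the RNA sensor RIG-I, had -0.13, and Dhx58, the related regulator LGP2, had -0.16 (0.07 without wild type 2). Trim25, the ubiquitin ligase that activates RIG-I and also conjugates ISG15, had -0.19 (-0.003 without knockout 1), with knockout 1 at 8.98 and the other arrays between 9.26 and 9.47. Usp18, the protease that removes ISG15 and blocks the interferon receptor, had 5.73 and 6.08 in knockouts and 5.93 and 6.72 in wild types. Wild type 2 was again the high array, the genotypes overlapped, and the difference of Usp18 was -0.42 (SE 0.281), or -0.03 without wild type 2.

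The IFIT genes, whose proteins bind foreign or incompletely capped RNA, were among the most variable. Ifit1 had log2 values of 4.91 and 5.55 in knockouts and 5.57 and 6.69 in wild types. Ifit3 had 6.75 and 7.28 in knockouts and 7.24 and 8.50 in wild types. For both genes knockout 2 and wild type 1 were within 0.04 of each other, knockout 1 was lower and wild type 2 higher. The differences were -0.90 (SE 0.415) for Ifit1 and -0.85 (SE 0.438) for Ifit3, with limma adjusted p = 0.738 and 0.753, and without wild type 2 they were -0.34 and -0.23. Leaving out wild type 1 moved them the other way, to -1.46 and -1.48. Ifit2 had 6.81 and 6.84 in knockouts and 7.10 and 7.59 in wild types. Here the genotypes did not overlap, with 0.25 between the nearest arrays and a difference of -0.52 (SE 0.17, limma adjusted p = 0.693), or -0.27 without wild type 2. Ifit2, Ifit3 and Ifit1 lie close together on chromosome 19. Ifit3 has a closely similar copy in the mouse genome, and its probe set may read both.

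The 2′-5′ oligoadenylate synthetase family, which makes the signal that turns on RNase L, held both the most and the least variable gene of the set. Oasl2, a synthetase-like member of the family, had the widest range of the whole set, with 5.56 and 6.43 in knockouts and 6.26 and 7.44 in wild types. Its genotypes overlapped and its difference was -0.85 (SE 0.469, limma adjusted p = 0.764). Without wild type 2 the difference of Oasl2 was -0.26, and without knockout 1 it was -0.42. Oas2, which had both knockouts below both wild types, had -0.41 (SE 0.195), or -0.13 without wild type 2, and Oasl1, a brake on Irf7 translation, had -0.23 (SE 0.0865). Oas3 was the flattest gene, with 4.33, 4.28, 4.36 and 4.34 on knockouts 1 and 2 and wild types 1 and 2, and its mean lay below the 95th percentile of the nonspecific controls. The double-stranded RNA kinase Eif2ak2 had -0.16 and the RNA-editing deaminase Adar -0.13, and for both genes the genotypes overlapped.

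The immunity-related GTPases, which attack the vacuoles of intracellular bacteria and parasites and are strongly induced by type II interferon, included the genes with the widest separation between genotypes. Iigp1 had log2 values of 8.56 and 8.74 in knockouts and 9.50 and 10.03 in wild types. Both wild types lay above both knockouts, with 0.76 between the nearest arrays, and Iigp1 was 2.17-fold lower in knockouts (difference -1.12, SE 0.19, limma adjusted p = 0.651). A second probe set of Iigp1 read 7.82 and 7.97 in knockouts and 8.84 and 9.39 in wild types, a difference of -1.23. Igtp had 6.98 and 7.02 in knockouts and 7.57 and 7.93 in wild types. The gap between the nearest arrays was 0.55, and Igtp was 1.68-fold lower in knockouts (difference -0.75, SE 0.132, limma adjusted p = 0.651). Without wild type 2 the difference was still -0.85 for Iigp1 and -0.57 for Igtp.

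Ifi47, another GTPase of this family, had a difference of -0.46 (SE 0.143; -0.30 without wild type 2) with a gap of 0.18 between the genotypes. Irgm1, a regulator of the other family members, had -0.31 (SE 0.188) with overlapping genotypes, and -0.05 without wild type 2. The median of wild type 1 minus knockout 2 was 0.36 for these 4 GTPases and -0.033 for the 33 other genes, of which 29 lay within 0.2 of 0. The contrast between these groups was noticed after the values were seen and was not tested. Irgm2 and Tgtp1, 2 further GTPases of the family from the list of other interferon-induced genes, also had both knockouts below both wild types. That separation was not particular to the family: 26 of the 53 measured genes of that list had it, against 19.4% of all genes. Wild type 1 minus knockout 2 was 0.49 for Irgm2 and 0.37 for Tgtp1, beside 0.47 for Ifi27l2a, a gene of that list outside the family. Irgm2 had 6.98 and 6.84 against 7.33 and 7.65, a difference of -0.58 (SE 0.128, limma adjusted p = 0.693). Tgtp1, which has a nearly identical neighbour, had 7.22 and 7.29 against 7.66 and 8.76, a difference of -0.95 (SE 0.354) that was -0.40 without wild type 2.

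**Figure D3:**
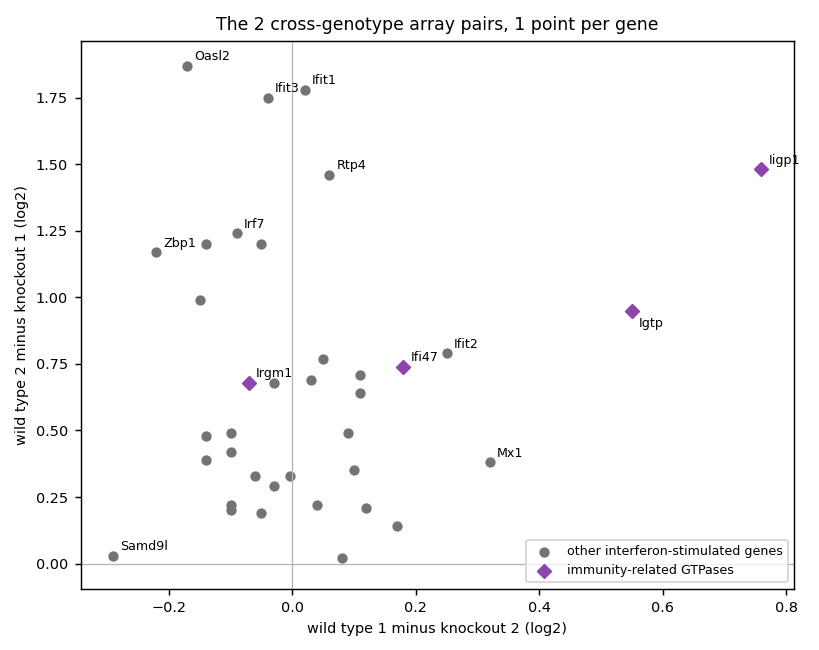
Each point is 1 interferon-stimulated gene; the horizontal axis is wild type 1 minus knockout 2 and the vertical axis wild type 2 minus knockout 1, both on the log2 scale. Purple diamonds mark the immunity-related GTPases; 29 of the 33 other genes lie within 0.2 of 0 on the horizontal axis, and Iigp1 and Igtp lie farthest right at 0.76 and 0.55.

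The guanylate-binding proteins, which coat the same vacuoles, followed the common order of the arrays. Gbp3 had 8.24 and 8.63 in knockouts and 8.58 and 9.44 in wild types, so that wild type 2 alone was high and the genotypes overlapped (difference -0.57, SE 0.307, limma adjusted p = 0.758). Without wild type 2 the difference of Gbp3 was -0.14. Gbp2 had a difference of -0.41 (SE 0.151; -0.23 without wild type 2) with both knockouts below both wild types, and its second probe set had -0.28 with overlap. The brighter Gbp2 probe set is of a type that can read related genes. The dynamin-like antiviral GTPases Mx1 and Mx2 had differences of -0.35 (SE 0.0776) and -0.05 (SE 0.0946). Mx1 read only 3.72 to 4.17, below the 95th percentile of the nonspecific controls; as background, C57BL/6 mice carry a defective Mx1 allele.

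Antiviral genes of membranes and nucleotides showed the same order. Rtp4, an interferon-induced chaperone of receptor transport, had 8.17 and 8.70 in knockouts and 8.76 and 9.64 in wild types. The genotypes were apart by 0.06 only, and the difference was -0.76 (SE 0.331, limma adjusted p = 0.729), or -0.32 without wild type 2. Rsad2, which encodes viperin, had -0.33 (SE 0.172; -0.14 without wild type 2), and its 3 probe sets ran from -0.33 to -0.24. Its neighbour on chromosome 12, the mitochondrial nucleotide kinase Cmpk2, had -0.29 (SE 0.112; -0.16 without wild type 2). Xaf1, a pro-apoptotic interferon-induced gene, had 8.22 and 8.73 in knockouts and 8.59 and 9.42 in wild types. Xaf1 overlapped between genotypes, with a difference of -0.53 (SE 0.315, limma adjusted p = 0.778), or -0.11 without wild type 2 and -0.27 without knockout 1.

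Differences of the ADP-ribosyltransferases and of a few further induced genes were small. Parp9, Parp12 and Parp14 had differences of -0.12, -0.16 and -0.13, and in no case were the genotypes apart. Ifi35 had -0.06 and Tor3a -0.17 (0.08 without wild type 2). Samd9l, a translation-restricting antiviral factor, was the only gene with a higher mean in knockouts. It had 7.73 and 8.04 in knockouts and 7.75 and 7.76 in wild types, so that knockout 2 alone was high, and its difference was 0.13 with a 95% interval of -0.17 to 0.42.

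For 13 genes more than 1 probe set was present, and the 18 that were not used above mostly pointed the same way. A lower mean in knockouts was seen in 14 of these 18, and in 9 of the 11 that lay above the nonspecific limit. By the brightest probe set, 51.2% of all genes and 49.9% of those above the limit had a lower mean. Those with a higher mean in knockouts belonged to Dhx58 (0.09 and 0.07), Zbp1 (0.06) and Tor3a (0.04). Of the 35 measured genes that could be placed on the genome, 0 lie on chromosome 8, which carries Mmp15; Mx1 and Mx2 were not placed.

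Upstream in the pathway the differences were smaller. The 11 measured interferon genes read 3.33 to 4.69, in the range of the nonspecific controls, with 1 above their 95th percentile. Of these, 5 had a lower and 6 a higher mean in knockouts, where 51.2% of all genes had a lower mean. Ifna1, an alpha interferon, had 0.24 (unadjusted p = 0.0258 and adjusted p = 0.693 by limma), Ifna7 0.14, Ifna5 -0.10 and Ifnb1, interferon beta, 0.10. Ifng, the type II interferon, read 3.66 and 3.56 in knockouts and 3.64 and 3.55 in wild types. Of 9 receptor and Janus kinase genes, 3 had a lower and 6 a higher mean, with a median of 0.052 and none past an unadjusted p of 0.05 by limma. The largest differences were those of Ifnlr1, the type III receptor (-0.28), Tyk2 (0.13), Il10rb (0.09) and the type I receptor chain Ifnar2 (0.08). Wild type 2 was the highest array for 0 of these 9 genes, against 28.7% of all genes.

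Genes that sense nucleic acid or induce interferon (13 measured) had a median difference of -0.001. Irf8, a factor of myeloid cells, had -0.27 (unadjusted p = 0.0284 by limma), Sting1 0.21, the adaptor Mavs 0.16 and the adaptor Ticam1 -0.10. The brakes of the pathway (12 measured) had a median of -0.075, with Samhd1 at -0.13, Ptpn6 at -0.13, the nuclease Trex1 at -0.12 and Rnaseh2b at -0.12. Wild type 2 was highest for 1 of the 13 and 3 of the 12, against 28.7% of all genes. Stat2, Irf9 and Irf7 are themselves interferon-induced, and their values are given above.

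Downstream, a second list of 53 interferon-induced genes outside the set had the same direction. The list was chosen with earlier results of these data known and was read on the same arrays, so it is no independent support. The mean was lower in knockouts for 48 of the 53, against 51.2% of all genes, with a median of -0.236. By limma 0 of them passed the adjusted threshold, 11 were lower at an unadjusted p under 0.05 and 1 was higher (Slfn5, 0.30), against 3.38% and 3.63% of all genes. After Tgtp1 the largest differences were those of Ifi27l2a (-0.60), Irgm2 (-0.58) and Cxcl9, a chemokine induced by type II interferon (-0.50). Cxcl9 read 6.82, 7.0 and 6.98 on knockouts 1 and 2 and wild type 1 and 7.85 on wild type 2. Wild type 2 was highest for 38 and knockout 1 lowest for 39 of the 53, against 28.7% and 28.2% of all genes.

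**Figure D4:**
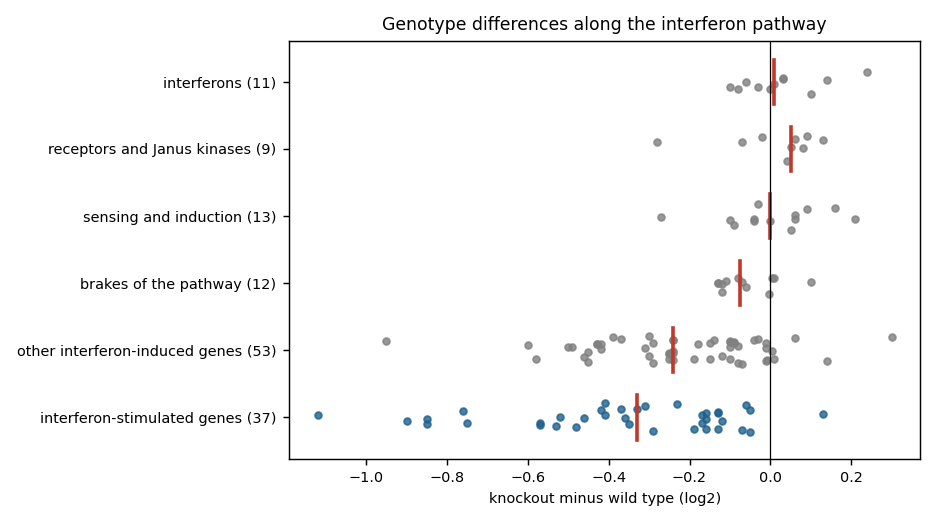
Knockout minus wild-type difference on the log2 scale of single genes (points; vertical scatter is only for legibility) in 5 lists of the interferon pathway and in the interferon-stimulated set, with the number of genes in brackets and the median as a red line. The medians of the upstream lists lie between -0.075 and 0.052, and those of the induced genes at -0.236 and -0.327.

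Wild type 2 exceeded every other array by at least 0.5 for 11 of the 37 genes, against 0.287% of all genes: Irf7, Zbp1, Usp18, Ifit1, Ifit3, Oas2, Oasl2, Gbp3, Iigp1, Rtp4 and Xaf1. Ifit2, at 0.50 after rounding, lay just under that limit. Among the 20 genes with the largest such excess, above the nonspecific limit, 8 belonged to the set and 2 to the second list. Predicted genes and clones were left out of this ranking. Before that exclusion, 35 of the 12345 genes above the limit belonged to the set and 50 to the second list. Outside all lists, with the same exclusion, the genes with the largest excess included the interferon-inducible Ifi213 (0.83) and the guanylate-binding protein Gbp10 (0.68). They also included genes of other kinds, such as Cabp4 (1.07), the apolipoprotein Apoc3 (0.97), the metallothionein Mt4 (0.95), Acsm3 (0.90), Rassf6 (0.87), Rwdd3 (0.78), Mycl (0.76) and the arginase Arg1 (0.73).

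Marker genes of other cells varied between the same arrays. Beside the counts of direction given here, 51.2% of all genes had a lower mean in knockouts. The mean of 13 macrophage markers was 7.99 and 8.15 on knockouts 1 and 2 and 8.19 and 8.18 on wild types 1 and 2, with 12 of 13 lower in knockouts. Knockout 1 was the lowest array for 11 of the 13, as it was for most interferon-stimulated genes, against 28.2% of all genes. Wild type 2 was the highest for 3, against 28.7% of all genes. Fcgr1, an Fc receptor that is also interferon-induced, was the macrophage marker with the widest difference, with 5.78 and 5.92 in knockouts and 6.14 and 6.96 in wild types. The 8 neutrophil markers had means of 5.93, 6.17, 6.22 and 6.21 in the same order of arrays, with 7 of 8 lower in knockouts. The 11 luminal epithelial markers had means of 7.56, 7.40, 7.71 and 7.70, with 10 of 11 lower in knockouts. The 6 markers of plasmacytoid dendritic cells, strong producers of type I interferon, had means of 5.90 to 5.97, with 5 of the 6 higher in knockouts. Ccr9, Spib and Pacsin1, 3 of the 6, lay below the nonspecific limit. The mean rests on Tcf4, Ly6d and Cox6a2, with differences of 0.09, -0.09 and 0.06. Whether these genes report plasmacytoid dendritic cells in this tissue was not tested, so the mean is no measure of those cells. The 12 T and NK cell markers had means of 5.08 to 5.19, with 9 of the 12 lower in knockouts and 6 below that limit. The 6 B cell markers had means of 4.33 to 4.70, with 6 of 6 higher in knockouts but only 3 above that limit. Ms4a1, 1 of these 3, had 0.76.

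Hair follicle and epidermal markers (13 genes) had means of 7.55 on knockout 1 and 7.45 on wild type 2, against 5.07 on knockout 2 and 5.23 on wild type 1. The widest ranges were those of Tchh (7.25), Krt25 (6.78), Krt27 (5.47), Krt71 (4.21), Perp (2.99) and Dsp (2.50), most of them genes of the hair root sheath or of cell junctions. Among markers of the upper epidermis, Krt10 was flat, with a range of 0.06. Krt1 and Lor had ranges of 0.13 and 0.25 but lay below the nonspecific limit, so their small ranges do not show an even level. Knockout 1 and wild type 2, high in the genes with the widest ranges, were the lowest and the highest array for most interferon-stimulated genes. Proliferation genes (14) had 8.02, 8.04, 8.57 and 7.68 on knockouts 1 and 2 and wild types 1 and 2, with wild type 2 lowest and 13 of 14 lower in knockouts. Adipocyte genes (8) had 10.97, 10.77, 10.34 and 10.01 in that order. That order came from 4 of the 8 genes, the hormone gene Lep (difference 2.19) and the thermogenic genes Ucp1 (1.64), Dio2 (1.03) and Cidea (0.76). The general adipocyte genes were nearly level, with Adipoq at -0.04, Fabp4 at 0.02, Pparg at -0.10 and Lpl at 0.09. The mean over the 37 interferon-stimulated genes was 6.85, 7.07, 7.10 and 7.55 on the same arrays. Endothelial markers (12) had 9.25, 9.48, 9.20 and 9.17, with 11 of 12 higher in knockouts. Beside the proliferation and endothelial counts, 51.2% of all genes had a lower mean in knockouts. The part of any of these cell populations in the interferon-stimulated difference was not tested.

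**Figure D5:**
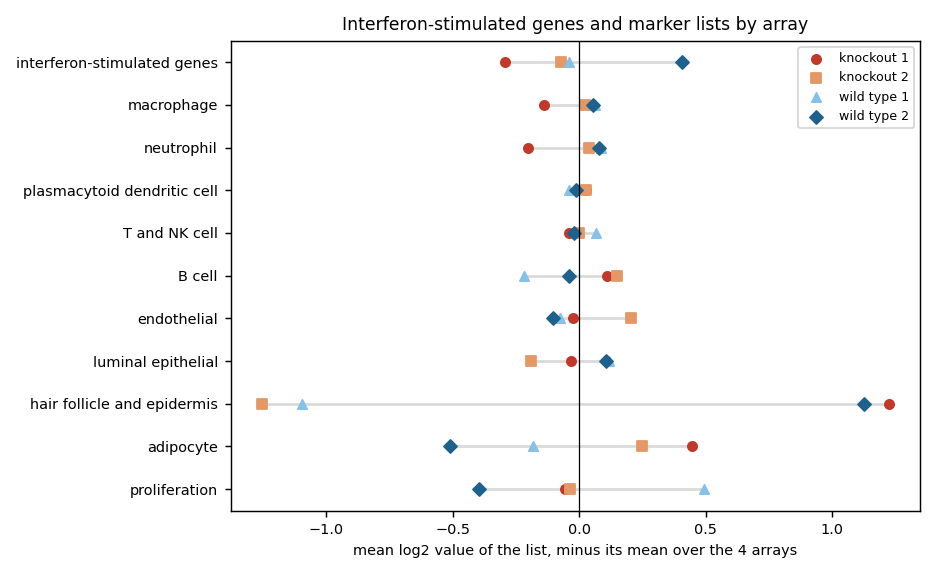
Mean log2 value of the interferon-stimulated set and of each marker list on the 4 arrays (symbols), as the distance from the mean over the arrays. The interferon-stimulated genes run from knockout 1 to wild type 2 with the inner arrays level, while the mean of the hair follicle and epidermal markers is high on both knockout 1 and wild type 2.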

How the data were processed

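The values deposited by the authors are log2 expression values, 1 per probe set and array, from RMA in affy, per the submitters' processing notes; no version is given in the sources used here. Quantile normalization within RMA gives all arrays the same intensity distribution, and differences of dim genes are compressed. Labelled RNA was made from 200 ng of total RNA with a 3′ IVT kit, per the labels' protocols. Of 45141 probe sets, 28898 had 1 symbol in the platform annotation and 551 several. The brightest probe set of each gene by the mean of 4 arrays was kept (17097 genes). Promoters came from RefSeq, assembly GRCm38.p6.

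The genotypes were compared by limma 3.58.1 (lmFit, then eBayes; R 4.3.3) in two-sided tests over all genes, with Benjamini-Hochberg adjustment and no covariate. The median standard error was 0.08; the number of arrays limits precision. The smallest p that exact permutation of the 4 arrays allows is 0.333. The steps were tested on simulated data in which each gene varied independently. Shifts shared by many genes on an array were not simulated. Alternatives were other scalings, a brightness filter, the mean of probe sets, every probe set, an intensity trend, the replicate number as a block and each array left out.

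The genes and lists were chosen with earlier results of these data known. Every measured gene of the set was named; values on each array were given for the 12 with the widest range, for Stat2, Irf9, Irf7 and Irf1 and for the 2 flattest, up to 4 genes were named per pathway list, and 10 genes outside the lists by their excess on wild type 2. Genes named beside these (Samd9l, Ifih1 and Trim25 by array, Irgm2, Tgtp1, Slfn5, Fcgr1 and the hair follicle, adipocyte and B cell markers) were chosen after their values were seen.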

Additional observations from a re-analysis of the deposited data

How the results depend on the processing

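With 2 arrays per genotype, no interferon-stimulated gene passed an adjusted p of 0.05 by limma under any of the alternatives run; the smallest adjusted p was 0.193, for Iigp1 without wild type 1. With 1 array left out, so that the lone array's spread is assumed from the other genotype, the number of genes with a lower mean in knockouts ran from 29 to 37, the median difference from -0.513 to -0.117 and the number lower at an unadjusted p under 0.05 by limma from 3 to 25. That last number was 8 as reported. It was 21 with the replicate number as a block (3.66% of all genes) and 5 when refitted on genes above the nonspecific limit alone (3.52%), where 7 of those 35 genes passed in the reported fit. Deviations of same-numbered arrays correlated at -0.48 across genes, which does not pair them. A block pairing knockout 1 with wild type 2, chosen after the data were seen, gave 5 (2.87% of all genes). The causes were not tested. Of 423 values of single genes under alternatives, 407 kept their direction and 16 turned. The intensity trend, the brightness filter and both blocks leave each difference as it was by construction, so their values could not turn. The same holds for the mean of probe sets, except in the 13 genes with more than 1 probe set. All 16 came from leaving out an array or from other probe sets. Without knockout 1, Irf1 had 0.01, Mx2 0.005, Parp9 0.04 and Ifi35 0.009. Without knockout 2, Samd9l had -0.02. Without wild type 2, Dhx58 had 0.07, Zbp1 0.07, Adar 0.0009, Mx2 0.05, Parp14 0.03, Ifi35 0.03 and Tor3a 0.08. Other probe sets gave 0.09 and 0.07 for Dhx58, 0.04 for Tor3a and 0.06 for Zbp1.

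With single genes, the leave-one-out differences ran from -0.15 to 0.01 for Irf1, -0.15 to 0.05 for Mx2, -0.28 to 0.04 for Parp9, -0.15 to 0.03 for Ifi35 and -0.02 to 0.28 for Samd9l. They ran from -0.40 to 0.07 for Dhx58, -1.02 to 0.07 for Zbp1, -0.26 to 0.0009 for Adar, -0.30 to 0.03 for Parp14 and -0.42 to 0.08 for Tor3a.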
